A study of Mus musculus with 4 samples.

Results

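Resting DN3-like pre-TCR thymocytes are described here: cells of the CD25+ sort that carried transcripts of the pre-T cell receptor and of the recombinase, and none of Cd4, Trac or Mki67. Members were selected on their own counts of 9 genes among barcodes with at least 500 genes and under 10% mitochondrial UMIs (unique molecular identifiers, each standing for 1 captured transcript). A member held at least 3 UMIs of Ptcra, at least 1 of Rag1, 0 of Cd4, Trac, Mki67 and Gzma, and fewer than 2 of Cpa3, Lyl1 and Hhex together. The rule found 3368 members among the 18325 kept cells of both CD25+ libraries, or among 23210 kept cells of all 4 libraries. Of these, 1574 were among 10110 knockout-labelled CD25+ cells (15.6%, 95% Clopper-Pearson interval 14.9 to 16.3) and 1794 among 8215 WT CD25+ cells (21.8%, interval 20.9 to 22.7). The CD25− libraries held 0 of 1767 knockout-labelled cells, which allows a share of up to 0.170% (3 counts of the total), and 0 of 3118 WT cells, which by the same limit allows up to 0.0962%. All intervals and limits cover counting error only.

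The study set thymocytes labelled PD-1 knockout against wild-type (WT) thymocytes, in a CD25+ gate for regulatory T cells and their progenitors and in a CD25− gate for CD4 single-positive cells. Both genotypes were C57BL/6J mice aged 3 weeks, and each genotype's pool came from 4 animals, per the labels' protocols, with CD8-bearing cells depleted before live CD4+ HSA+ CD73− cells were sorted. The same protocols list CD74 and not CD73 among the stains. Transcripts were counted from the 5′ end with 10x Genomics chemistry, in 1 library for each of the 4 groups, so differences below lack any replicate check and none was tested.

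Double-negative (DN) thymocytes carry neither CD4 nor CD8, and pass from early progenitors through a CD25-bearing DN3 stage. There the Rag1 and Rag2 recombinase cuts the T cell receptor beta, gamma and delta loci, terminal transferase (Dntt) adds bases at the joins, and a successful beta chain pairs with pre-T alpha (Ptcra) and CD3 to form the pre-TCR. Notch signals maintain this stage, and resting DN3 cells are those that have not yet begun the divisions that follow a pre-TCR signal.

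Ptcra is the gene on which the selection turned first, and its upstream sequence is shown because the genes of the Notch pathway are followed below. The 200 bases before its RefSeq start (GRCm38.p6, written 5′ to 3′ on the gene's strand) held TGGGAA, the core recognised by the Notch partner RBPJ, at 2 places, and the E-box CAGCTG, bound by E proteins, at 2 places. Capitals mark these matches, which were searched on both strands.
Ptcra (chr17:46763713-46763912, minus strand): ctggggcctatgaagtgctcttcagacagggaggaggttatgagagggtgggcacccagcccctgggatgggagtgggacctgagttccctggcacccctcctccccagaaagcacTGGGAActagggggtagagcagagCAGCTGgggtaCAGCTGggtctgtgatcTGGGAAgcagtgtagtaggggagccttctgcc
In windows of the same 200 bases, TGGGAA was present in 17.3% and CAGCTG in 10.9% of 32851 RefSeq promoters, so such a match is common.

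Pdcd1, which encodes PD-1, was not lower in the library labelled knockout. Members held 29 Pdcd1 UMIs (3.25 CPM, the count per 1e+06 UMIs of the summed members) in the knockout-labelled library and 21 UMIs (1.86 CPM) in the WT library, a log2 ratio of 0.81 with a counting interval of -0.05 to 1.69. In cells with UMIs of both Cd4 and Trac the log2 ratio was 0.71 in the CD25+ and 0.86 in the CD25− libraries. The sources used here do not say which segment was deleted, so this gene does not check the labels, and the libraries are called knockout-labelled throughout. The members' UMIs summed to 8913810 in the knockout-labelled and 11309134 in the WT library. A member held a median of 5400 UMIs and 2428 genes in the knockout-labelled library, and 6007 UMIs and 2625.5 genes in the WT library. The median mitochondrial share was 3.20% in knockout-labelled and 2.99% in WT members. Of the kept barcodes, 118 occurred in both CD25+ libraries, 2 of them as members in both. Shares of cells with a UMI are given after each cell was thinned to 3000 UMIs, which left out 129 knockout-labelled and 72 WT members that were shallower.

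The edges of the selection were gradual for the pre-TCR genes. Members with exactly 3 Ptcra UMIs numbered 286 in the knockout-labelled and 311 in the WT library, and cells with 2 Ptcra UMIs that met every other condition numbered 275 and 275. Il2ra, which encodes the CD25 chain of the IL-2 receptor and was not used in the selection, stood at 1382 CPM in knockout-labelled and 1745 CPM in WT members with 3 Ptcra UMIs. In the cells just outside, with 2 Ptcra UMIs, Il2ra was at 1383 CPM in the knockout-labelled library and 1687 CPM in the WT library. The cells on either side of that edge thus carried like levels of this unselected marker. For Rag1, 448 knockout-labelled and 420 WT members had exactly 1 UMI, while 387 knockout-labelled and 384 WT cells failed only for having none. Few cells failed on Cd4 or Trac alone: 30 knockout-labelled and 29 WT cells had 1 Cd4 UMI, and 11 and 11 had 1 Trac UMI. A single Mki67 UMI left out 46 knockout-labelled and 18 WT cells. A sum of exactly 2 UMIs of Cpa3, Lyl1 and Hhex left out 4 knockout-labelled and 5 WT cells. Members had a median of 5 Ptcra UMIs (3 to 24) in the knockout-labelled and 6 (3 to 23) in the WT library, and of 2 Rag1 UMIs (1 to 25) in the knockout-labelled and 3 (1 to 20) in the WT library.

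One condition moved the membership more than any other. Gzma, which encodes the protease granzyme A of cytotoxic cells, was the only failed condition for 2024 knockout-labelled and 1163 WT cells. Without that condition the set would have held 3598 knockout-labelled cells, 35.6% of those kept, and 2957 WT cells, 36% of those kept, so the lower share of members in the knockout-labelled library was not seen in the wider set. Within the wider set, 56.3% of knockout-labelled cells (interval 54.6 to 57.9) and 39.3% of WT cells (interval 37.6 to 41.1) held a Gzma UMI, and 37.6% and 23.6% did at 3000 UMIs per cell. Its level in the wider set was 187 CPM in the knockout-labelled library and 120 CPM in the WT library. The share of Cd4 and Trac positive cells with a Gzma UMI was 7.35% in the knockout-labelled and 1.72% in the WT CD25+ library, so Gzma also differed in cells of another class. A single Gzma UMI accounted for 945 of the 2024 knockout-labelled and 617 of the 1163 WT exclusions. The part of Gzma RNA outside intact cells in these values was not tested.

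Genes the selection did not use also stood higher in members than in Cd4 and Trac positive cells, but did not set members apart from all other cells. Il2ra stood at 1460 CPM in knockout-labelled and 1754 CPM in WT members, and at 307 and 294 CPM in the Cd4 and Trac positive cells of the same libraries. A thinned cell held an Il2ra UMI in 94.3% of knockout-labelled and 95.8% of WT members, against 34.4% and 31.0% of Cd4 and Trac positive cells, whose median depth was 7462.5 UMIs in the knockout-labelled and 6204.5 UMIs in the WT library. Dntt stood at 1003 CPM in knockout-labelled and 1525 CPM in WT members, and at 183 and 174 CPM in Cd4 and Trac positive cells. Both markers were therefore several times higher in members of either library than in the Cd4-bearing class. Rag2, the partner of Rag1, was at 132 CPM in knockout-labelled and 169 CPM in WT members, against 16.7 and 11 CPM in Cd4 and Trac positive cells. Notch3, a Notch receptor of immature thymocytes, was at 274 CPM in knockout-labelled and 265 CPM in WT members, against 25.4 and 17.0 CPM. Cd3e, a signalling chain shared by the pre-TCR and the mature receptor, was at 1475 CPM in knockout-labelled and 1813 CPM in WT members, and at 990 and 994 CPM in the Cd4-bearing class. In cells that failed only on Gzma, each of these genes lay within 1.5-fold of its level in members of the same library. Il2ra there reached 1393 (knockout-labelled) and 1612 (WT) CPM. Dntt, with 1159 and 1594 CPM, exceeded its level in members, while Il2ra, Rag2, Notch3 and Cd3e fell below theirs. These genes therefore did not separate members from the cells left out for Gzma. The sort required surface CD4, yet members lack Cd4 transcripts by selection, and the surface protein of single cells was not measured.

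**Figure D1:**
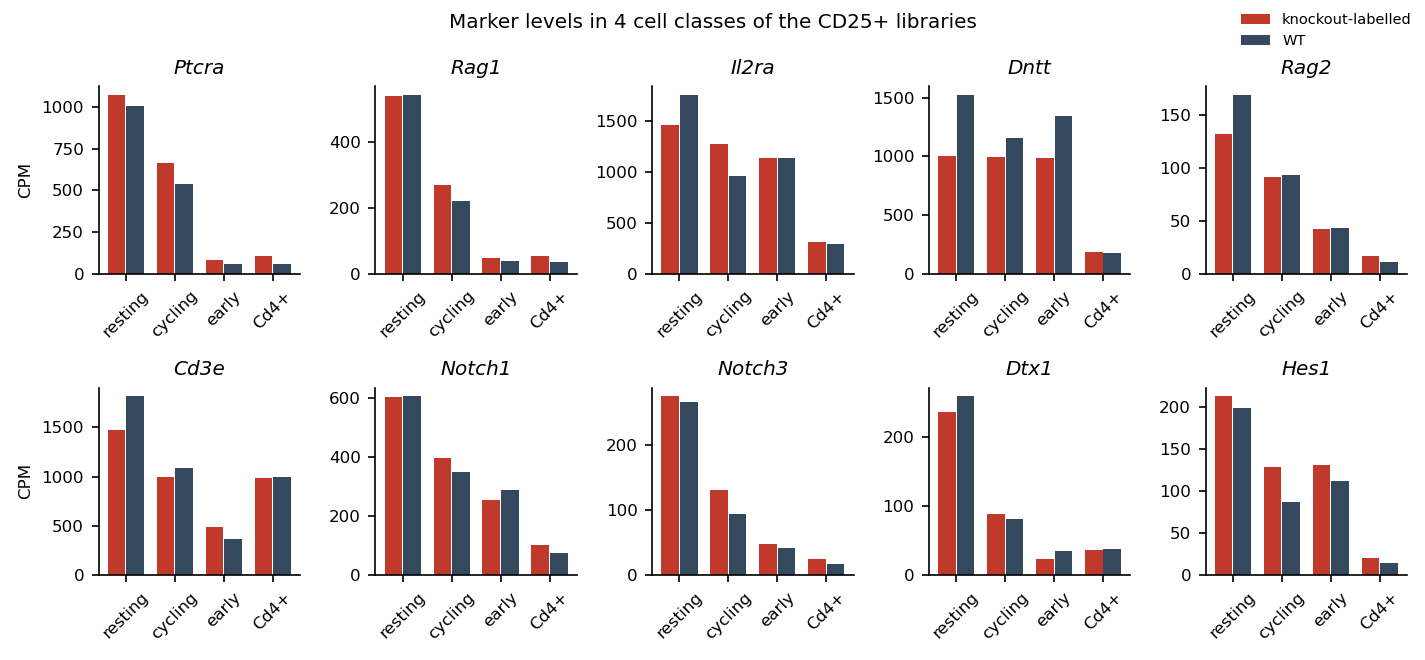
Levels of 10 marker genes (CPM, linear axes from 0) in resting members, their cycling counterparts, early counterparts and Cd4 and Trac positive cells of the CD25+ libraries, with knockout-labelled bars left of WT bars. Ptcra and Rag1 were used in the selection. Il2ra, Dntt, Rag2, Notch1, Notch3 and Dtx1 were not, and also stood highest in resting members of both libraries among the classes shown. For Dntt the margin was slight in the knockout-labelled library, at 1003 CPM against 994 CPM in cycling counterparts. Each bar is 1 sum over cells with no replicate.

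Genes listed for other cell types ranged from 0 to levels like those of Rag2 or Notch3. Foxp3, the regulatory T cell factor, had 14 UMIs in all knockout-labelled members and 21 in all WT members, which is 1.57 and 1.86 CPM. The 13 genes of its list summed to 501 CPM in knockout-labelled and 467 CPM in WT members, with Ikzf2 at 109 and 105 CPM. Cd8a had 5 UMIs in each library, while the double-positive list summed to 3072 CPM in knockout-labelled and 3761 CPM in WT members. Of the 13 genes listed for natural killer and innate lymphoid cells, 8 were at 0 in each library, Gzma by selection, and the sum was 106 CPM in knockout-labelled and 153 CPM in WT members, nearly all of it Nkg7 at 101 and 147 CPM. Nkg7, a granule protein gene of cytotoxic cells, was thus present although Gzma was absent by selection. Of 9 B cell and plasma cell genes, 5 were at 0 in each library, and Cd79b, an antigen receptor chain of B cells, was at 110 CPM in knockout-labelled and 109 CPM in WT members. Of 11 stromal and epithelial genes, 7 were at 0 in each library, while Epcam, an adhesion gene that heads many epithelial marker lists, was at 298 CPM in knockout-labelled and 246 CPM in WT members. Myeloid and dendritic genes summed to 171 CPM in knockout-labelled and 262 CPM in WT members, with 4 of 14 at 0 in each. The higher WT sum contained a single cell with 472 Cd74 and 189 H2-Ab1 UMIs, genes of MHC class II presentation, and both genes are also given without it further on.

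Setting members against cells one condition away showed which genes went with rest. Cycling counterparts met the rule but held at least 1 Mki67 UMI. They numbered 159 in the knockout-labelled and 77 in the WT library, and their median depth was 11889 and 14626 UMIs, above that of members. In both libraries, members exceeded them at least 1.5-fold for 1069 of 7113 genes compared (15.0%) and fell short of them by as much for 738 (10.4%). All 20 proliferation genes measured were among the lower ones, Mki67 by selection. Birc5, a regulator of chromosome segregation, was at 1.01 CPM in members and 274 CPM in cycling counterparts of the knockout-labelled library, and at 0.531 and 289 CPM in those of the WT library. Bmf, a pro-apoptotic BCL-2 family gene, was higher in members, at 34.4 CPM against 4.85 CPM in cycling counterparts of the knockout-labelled library and at 28.4 against 5.20 CPM in the WT library. Ccr9, a chemokine receptor of thymocytes, and Scn4b, a sodium channel beta subunit gene, were also higher in members. Ccr9 was at 48.4 CPM in members against 11.3 CPM in cycling counterparts of the knockout-labelled library and at 113 against 19.9 CPM in the WT library. Scn4b was at 33.5 against 7.54 CPM in the knockout-labelled and at 84.8 against 14.7 CPM in the WT library. Dlgap4, Olfr1507, Tcp11l2, Traf1 and Mirt1 completed the 8 genes furthest above the cycling cells, among genes at 20 CPM or more in members or cycling cells of each library and with at least 100 UMIs in all. Of the 20 Notch pathway genes, 9 were higher in members and 1 lower, with a median log2 ratio of 0.66 in the knockout-labelled and 0.66 in the WT library. Lists were read over genes with at least 20 UMIs, of which 19.9% were higher and 9.35% lower in members. For Notch1, the receptor itself, 602 CPM in members stood against 395 CPM in cycling counterparts of the knockout-labelled library, and 604 against 348 CPM in the WT library. Depth per cell moved with this contrast and its part was not tested.

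Early counterparts differed from members in genes of early progenitors and also in genes of proliferation. These cells held at least 2 UMIs of Cpa3, Lyl1 and Hhex together and none of Cd4, Trac, Mki67 or Gzma, with no minimum of Ptcra or Rag1, and numbered 60 in the knockout-labelled and 127 in the WT library. Their median depth was 11298 UMIs in the knockout-labelled and 11637 UMIs in the WT library, again above that of members. In both libraries, 691 of 7085 genes (9.75%) stood at least 1.5-fold above the early cells in members and 549 (7.75%) as far below. Early progenitor genes were lower in members for 15 of 16 measured, of which Cpa3, Lyl1 and Hhex were fixed by the selection. Of 19 measured proliferation genes, 16 were lower and none higher in members, with a median log2 ratio of -1.44 in the knockout-labelled and -1.71 in the WT library. Over all genes with as many UMIs, 13.8% were higher and 9.71% lower. Kit, the stem cell factor receptor, was at 26.9 CPM in members against 205 CPM in early counterparts of the knockout-labelled library, and at 17.0 against 126 CPM in the WT library. Cd34, a surface marker of progenitors, was at 0 CPM against 32.7 CPM in the knockout-labelled and at 0.177 against 50.4 CPM in the WT library. On the other side, H19, an imprinted non-coding RNA, was at 351 CPM in members against 24.1 CPM in early counterparts of the knockout-labelled library and at 450 against 34.5 CPM in the WT library. Dtx1, a Notch target, was at 236 against 22.7 CPM in the knockout-labelled and at 258 against 34.5 CPM in the WT library. Cldn4, a claudin of cell junctions, was at 81.2 against 4.26 CPM in the knockout-labelled library and at 39.5 CPM against 0 in the WT library. Dntt barely separated these stages, at 1003 against 989 CPM in the knockout-labelled and 1525 against 1342 CPM in the WT library.

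Between the libraries, members showed a short list of large differences. Genes at 20 CPM or more in either library numbered 7114, of which knockout-labelled members had 145 (2.04%) at a level 1.5-fold or more above WT members and 146 (2.05%) as far below, with a median log2 ratio of -0.03. The higher genes made up 49.8% of those past the mark, and 61.7% when mitochondrial, ribosomal protein and receptor genes were left out of the totals. Among the 12 named genes highest in knockout-labelled members were 3 nonclassical MHC class I genes and 5 genes known to be induced by interferon (Iigp1, Usp18, Ifitm3, Ifi27l2a and Oasl2). Among the 12 lowest were 2 chaperones (Hspa8 and Hsph1), Thy1, and a pair of MHC class II genes that rested on 1 WT cell.

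**Figure D2:**
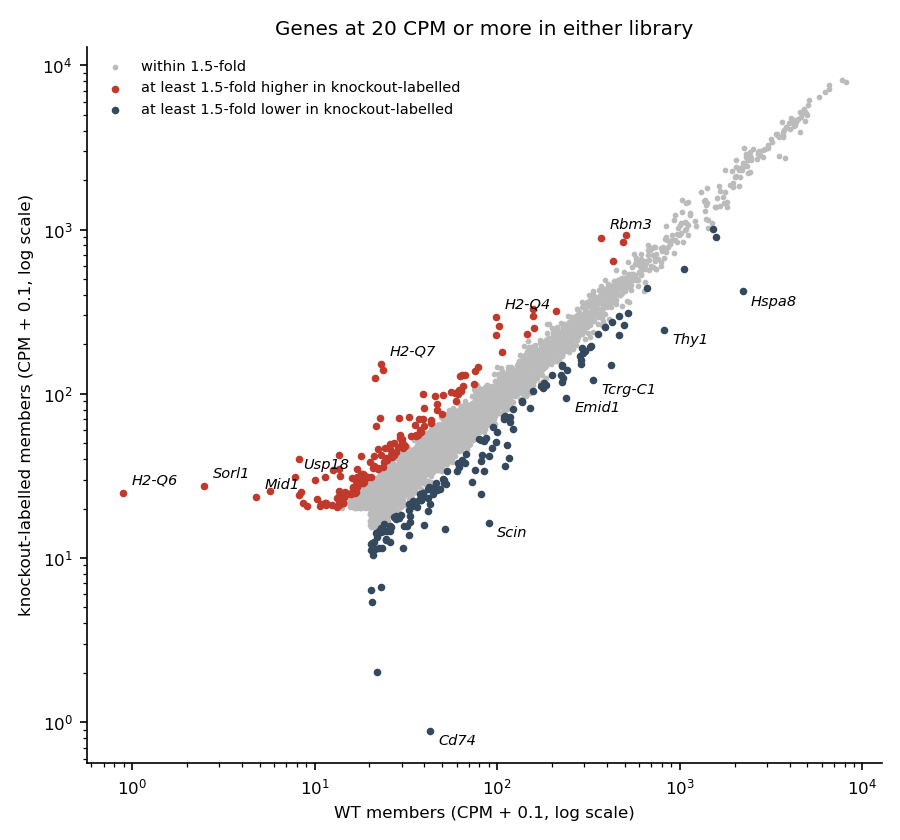
Level of each of 7114 genes in knockout-labelled members (vertical axis) and WT members (horizontal axis), both CPM plus 0.1 on log scales. Coloured points are the 145 genes past 1.5-fold on the higher side and the 146 on the lower side for knockout-labelled members; H2-Q6, Sorl1 and H2-Q7 lie furthest above the diagonal, and Hspa8, at 422 and 2211 CPM, stands apart among abundant genes.

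Most genes that define the stage lay within 1.5-fold, apart from Dntt. Il2ra and Rag2, which the selection did not use, had log2 ratios of -0.26 and -0.36. Ptcra and Rag1, each held to a minimum by the selection, were at 1073 and 540 CPM in knockout-labelled and at 1007 and 543 CPM in WT members. The lists that follow count genes with at least 20 UMIs over both libraries, and of all 11842 such genes 7.74% were 1.5-fold or more higher and 4.94% lower. Of 15 measured V(D)J recombination genes, 1 was 1.5-fold or more higher and 1 lower in knockout-labelled members, with a median log2 ratio of 0.07. The lower one was Dntt, with a log2 ratio of -0.60 (interval -0.64 to -0.57). It held a UMI in 91.7% of thinned knockout-labelled and 96.6% of thinned WT members. The higher one was Polm, a polymerase of end joining, on 40 UMIs in knockout-labelled and 14 in WT members. Of the 7 pre-TCR and CD3 complex genes none passed 1.5-fold, but 6 of the log2 ratios lay below 0 and the median was -0.30. Cd3g was the lowest of them, at 2727 CPM in knockout-labelled and 3786 CPM in WT members. Of 20 measured Notch receptors and targets, 1 was higher, none lower, and the median was 0.05. Notch1 was at 602 CPM in knockout-labelled and 604 CPM in WT members, and Hes1, a Notch-induced repressor, at 213 and 199 CPM. The summed UMIs of that list averaged 5.89 per thinned knockout-labelled member and 5.94 per thinned WT member.

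T lineage transcription factors showed 1 difference past the mark among 26 genes, with a median log2 ratio of -0.02. Myb, a factor of proliferating progenitors, was at 439 CPM in knockout-labelled and 665 CPM in WT members, a log2 ratio of -0.60 (interval -0.66 to -0.54). Lef1, a TCF family factor, was the highest, at 565 CPM in knockout-labelled and 450 CPM in WT members, while its relative Tcf7 was at 344 and 486 CPM. Neither reached 1.5-fold, and their log2 ratios were 0.33 and -0.50. Bcl11b, which secures T lineage commitment, was at 493 CPM in knockout-labelled and 595 CPM in WT members. Cdkn1a, the p21 inhibitor of the cell cycle, was at 150 CPM in knockout-labelled and 226 CPM in WT members, a log2 ratio of -0.59. In the Gzma-positive counterparts no gene of this factor list passed 1.5-fold, but Myb came close to it at -0.56 (interval -0.61 to -0.51).

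Interferon-induced genes were higher in knockout-labelled members. Of 19 measured, 12 were at least 1.5-fold higher and none lower, and their median log2 ratio was 1.14, against -0.0034 over all genes with as many UMIs. Iigp1, an interferon-inducible GTPase, was at 39.9 CPM in knockout-labelled and 8.14 CPM in WT members, with a log2 ratio of 2.30 (interval 1.96 to 2.64). Usp18, which restrains interferon receptor signalling, was at 31.1 CPM in knockout-labelled and 7.69 CPM in WT members (2.01, interval 1.66 to 2.38). Isg15, a ubiquitin-like modifier, was the most abundant of the genes past the mark, at 129 CPM in knockout-labelled and 66.3 CPM in WT members (0.96, interval 0.83 to 1.10). These were low levels in either library: an Isg15 UMI was found in 24.2% of thinned knockout-labelled and 13.8% of thinned WT members, against 35.6% and 34.1% of Cd4 and Trac positive cells. Irf7, a factor that amplifies the response, was at 31.4 CPM in knockout-labelled and 13.6 CPM in WT members, and Irf9, a subunit of the factor that binds interferon response elements, at 70.3 and 37.1 CPM. Bst2, a tethering protein that restricts viral release, was the lowest of the list at 379 CPM in knockout-labelled and 419 CPM in WT members.

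MHC class I genes, many of which interferon also induces, stood higher as well. Of 15 measured, 7 were at least 1.5-fold higher and none lower in knockout-labelled members, with a median log2 ratio of 0.45. H2-Q7, a nonclassical gene of the Qa-2 group, was at 152 CPM (1352 UMIs) in knockout-labelled and 23 CPM (260 UMIs) in WT members, with a log2 ratio of 2.72 (interval 2.53 to 2.92). H2-Q4 was at 294 CPM in knockout-labelled and 98.7 CPM in WT members (1.58, interval 1.48 to 1.68). H2-Q6 was at 24.9 CPM in knockout-labelled and 0.796 CPM in WT members, on 222 and 9 UMIs. The H2-Q genes are close copies of one another, so how their reads were divided is uncertain. The classical genes H2-D1 and H2-K1 were at 928 and 843 CPM in knockout-labelled and at 506 and 492 CPM in WT members, with log2 ratios of 0.88 and 0.78. Their light chain gene B2m was at 2319 CPM in knockout-labelled and 1776 CPM in WT members, short of 1.5-fold at 0.39. Nlrc5, the transactivator of class I genes, was at 21.7 CPM in knockout-labelled and 8.58 CPM in WT members. The peptide transporter chain gene Tap2 ran the other way, at 285 CPM in knockout-labelled and 412 CPM in WT members, a log2 ratio of -0.54, as did the loading factor gene Tapbp at -0.44.

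The difference was spread over the members. Summed over the interferon list, a thinned knockout-labelled member held a mean of 4.29 UMIs (median 4) and a thinned WT member 3.19 (median 3). A sum of 5 or more was reached by 35.8% of knockout-labelled and 20.2% of WT members, and 10 or more by 5.19% and 2.85%. In Cd4 and Trac positive cells the same sum averaged 12 in the knockout-labelled and 11.5 in the WT CD25+ library. Over the MHC class I list the mean was 19.8 in knockout-labelled and 14.7 in WT members, with 25th percentiles of 15 and 10 and 90th percentiles of 30 and 23. The whole distribution of that list was thus higher in the knockout-labelled library. The highest interferon sum was 48 in both libraries, held by 1 cell in each. The next highest sum was 46 in knockout-labelled and 21 in WT members.

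**Figure D3:**
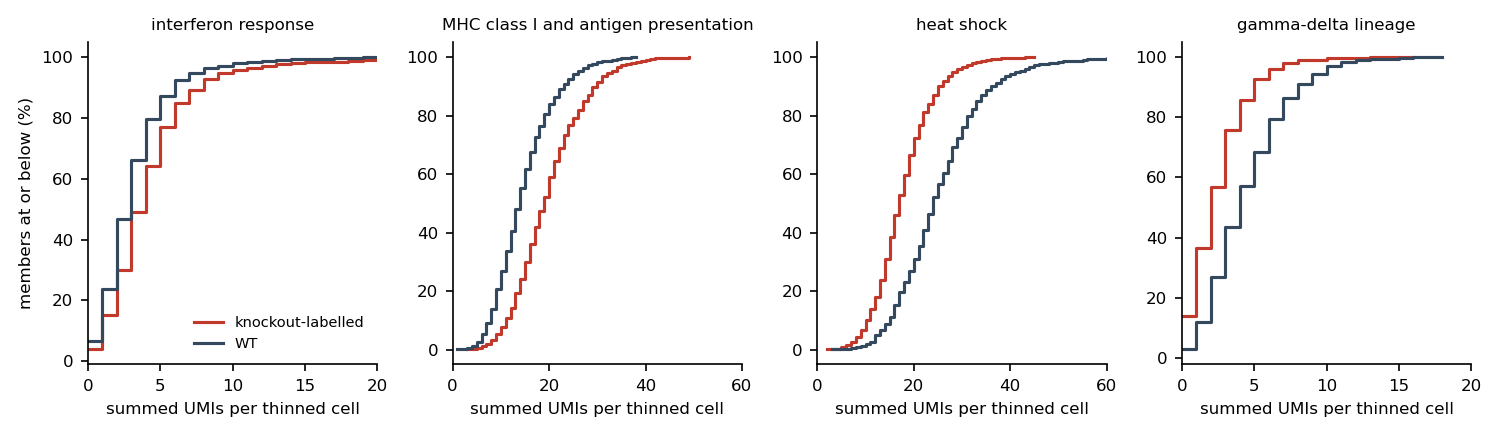
Cumulative share of members (%, vertical axis) at or below each summed UMI count (horizontal axis) for 4 gene lists, in cells thinned to 3000 UMIs, 1445 knockout-labelled and 1722 WT. The knockout-labelled curve lies to the right for the interferon and MHC class I lists and to the left for the heat shock and gamma-delta lists; the horizontal axes end at 20 or 60 UMIs.

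Upstream sequences of 6 of these genes are shown because they hold or lack the interferon response element. The 200 bases before each RefSeq start are given 5′ to 3′ on the gene's strand (GRCm38.p6). Capitals mark GAAANNGAA, a core of that element, or its shorter form GAANNGAA, on either strand, and overlapping matches run together. These motifs were chosen after the values were seen.
Isg15 (chr4:156200819-156201018, minus strand): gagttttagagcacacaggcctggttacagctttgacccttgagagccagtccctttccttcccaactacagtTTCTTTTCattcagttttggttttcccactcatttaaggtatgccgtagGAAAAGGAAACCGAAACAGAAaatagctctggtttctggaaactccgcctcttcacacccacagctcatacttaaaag
Ifit1 (chr19:34640689-34640888, plus strand): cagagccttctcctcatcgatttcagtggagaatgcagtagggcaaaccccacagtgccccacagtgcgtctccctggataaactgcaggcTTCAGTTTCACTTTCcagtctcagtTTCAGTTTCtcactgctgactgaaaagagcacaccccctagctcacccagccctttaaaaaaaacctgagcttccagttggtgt
Bst2 (chr8:71537473-71537672, minus strand): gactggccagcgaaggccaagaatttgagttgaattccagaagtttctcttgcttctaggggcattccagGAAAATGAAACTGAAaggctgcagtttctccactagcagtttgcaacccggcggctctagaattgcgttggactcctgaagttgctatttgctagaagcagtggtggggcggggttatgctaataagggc
H2-Q6 (chr17:35424650-35424849, plus strand): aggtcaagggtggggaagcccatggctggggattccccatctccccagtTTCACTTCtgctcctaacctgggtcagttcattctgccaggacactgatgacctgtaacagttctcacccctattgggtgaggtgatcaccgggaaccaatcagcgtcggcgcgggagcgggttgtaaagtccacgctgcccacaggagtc
H2-Q7 (chr17:35438955-35439154, plus strand): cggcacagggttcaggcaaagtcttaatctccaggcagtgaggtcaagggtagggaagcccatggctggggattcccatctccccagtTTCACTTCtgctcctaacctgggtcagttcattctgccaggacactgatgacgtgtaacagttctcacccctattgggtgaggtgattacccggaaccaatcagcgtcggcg
H2-Q4 (chr17:35379417-35379616, plus strand): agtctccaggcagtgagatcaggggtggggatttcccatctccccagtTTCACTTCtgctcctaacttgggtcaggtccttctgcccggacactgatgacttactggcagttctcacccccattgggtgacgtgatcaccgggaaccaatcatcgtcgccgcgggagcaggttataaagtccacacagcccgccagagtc
Of all RefSeq promoters, 5.57% held the core and 13.8% the shorter form within 200 bases. Isg15 held 3 overlapping cores, 58 to 78 bases before the start, and Ifit1, an antiviral RNA-binding protein gene, held 3 cores between 76 and 109 bases before it. Ifit1 was at 16.3 CPM in knockout-labelled and 3.54 CPM in WT members. Bst2 held 2 cores between 116 and 130 bases and was not higher, so a match did not go with the direction. The 3 H2-Q genes held only the shorter form, once each. Of 12 interferon genes with a window, 6 held the core within 250 bases, 3 of 7 past the 1.5-fold mark and 3 of 5 others. A match describes letters and is not a binding site.

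Heat shock and chaperone genes were lower in knockout-labelled members. Of 13 measured, 6 were at least 1.5-fold lower and 2 higher, with a median log2 ratio of -0.48. The 13 together summed to 6084 CPM in knockout-labelled and 8700 CPM in WT members, and Hspa8 made up most of that gap. Hspa8, the constitutive HSC70 chaperone, was at 422 CPM (3758 UMIs) in knockout-labelled and 2211 CPM (25003 UMIs) in WT members, 5.24 times lower (interval 5.07 to 5.43). It held a UMI in 67.4% of thinned knockout-labelled and 98.8% of thinned WT members. The same gene was lower in every other class: its log2 ratio was -2.39 in members, -2.90 in cycling, -2.39 in early, -2.10 in Cd4 and Trac positive CD25+ and -1.88 in Cd4 and Trac positive CD25− cells. Hsph1, a nucleotide exchange factor for such chaperones, was at 28.8 CPM in knockout-labelled and 72.9 CPM in WT members. The near-identical stress-inducible genes Hspa1a and Hspa1b, whose reads may be divided arbitrarily, were at 46.6 and 41.5 CPM in knockout-labelled and at 93.2 and 90.7 CPM in WT members. Hspa5, the chaperone of the endoplasmic reticulum, was at 169 CPM in knockout-labelled and 283 CPM in WT members. Hsp90ab1, the most abundant of the list, was at 2786 CPM in knockout-labelled and 3496 CPM in WT members and did not reach 1.5-fold.

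The 2 higher genes of that list encode RNA-binding proteins known to be induced by cold. Rbm3 was at 892 CPM in knockout-labelled and 373 CPM in WT members (log2 ratio 1.26, interval 1.20 to 1.31), and Cirbp at 229 and 98.5 CPM (1.21, interval 1.11 to 1.32). Both were also past 1.5-fold in Cd4 and Trac positive cells, with log2 ratios for Rbm3 of 1.17 in the CD25+ and 1.15 in the CD25− gate, and for Cirbp of 0.98 and 1.06. Per thinned member, the summed list averaged 17.7 UMIs in the knockout-labelled and 25.3 UMIs in the WT library. That sum is weighted to abundant genes such as Hspa8, and Rbm3 and Cirbp ran the other way within it. Immediate early genes, which respond within minutes to stimulation or dissociation, showed 2 of 15 lower and none higher, with a median log2 ratio of -0.23. Jun, an AP-1 subunit, was at 481 CPM in knockout-labelled and 643 CPM in WT members.

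Transcripts of the T cell receptor gamma locus were lower in knockout-labelled members. Of 12 measured gamma-delta lineage genes, 5 were at least 1.5-fold lower and 2 higher, with a median log2 ratio of -0.41. The constant segment genes Tcrg-C1 and Tcrg-C2, close copies of each other, were at 122 and 149 CPM in knockout-labelled and at 337 and 422 CPM in WT members, with log2 ratios of -1.47 and -1.50. Tcrg-C4 was at 119 CPM in knockout-labelled and 226 CPM in WT members (-0.93). Over all gamma variable segments, the level was 921 CPM in knockout-labelled and 1695 CPM in WT members, 1.84 times lower. Trdc, the delta constant segment, was at 72.0 CPM in knockout-labelled and 84.7 CPM in WT members and did not reach 1.5-fold. Gamma transcripts were carried by many members and not by a few: a Tcrg-C2 UMI was found in 32.9% of thinned knockout-labelled and 63.8% of thinned WT members, against 4.41% and 5% of Cd4 and Trac positive cells.

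Segments of the other receptor loci were lower too, with smaller factors for beta than for gamma segments. Variable beta segments summed to 241 CPM in knockout-labelled and 363 CPM in WT members, 1.51 times lower (interval 1.43 to 1.59), and a UMI of one was found in 40.1% of knockout-labelled and 55.1% of WT thinned members. The beta constant genes, near-identical in sequence, summed to 688 CPM in knockout-labelled and 911 CPM in WT members. Alpha joining segments had 0 UMIs in members of either library. Alpha variable segments were at 27.4 CPM in knockout-labelled and 42.7 CPM in WT members, 1.56 times lower (interval 1.33 to 1.83). In Cd4 and Trac positive cells they were at 624 and 807 CPM. Trac itself was at 0 by selection. Delta variable segments were at 33.1 CPM in knockout-labelled and 55.6 CPM in WT members, 1.68 times lower (interval 1.46 to 1.94).

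**Figure D4:**
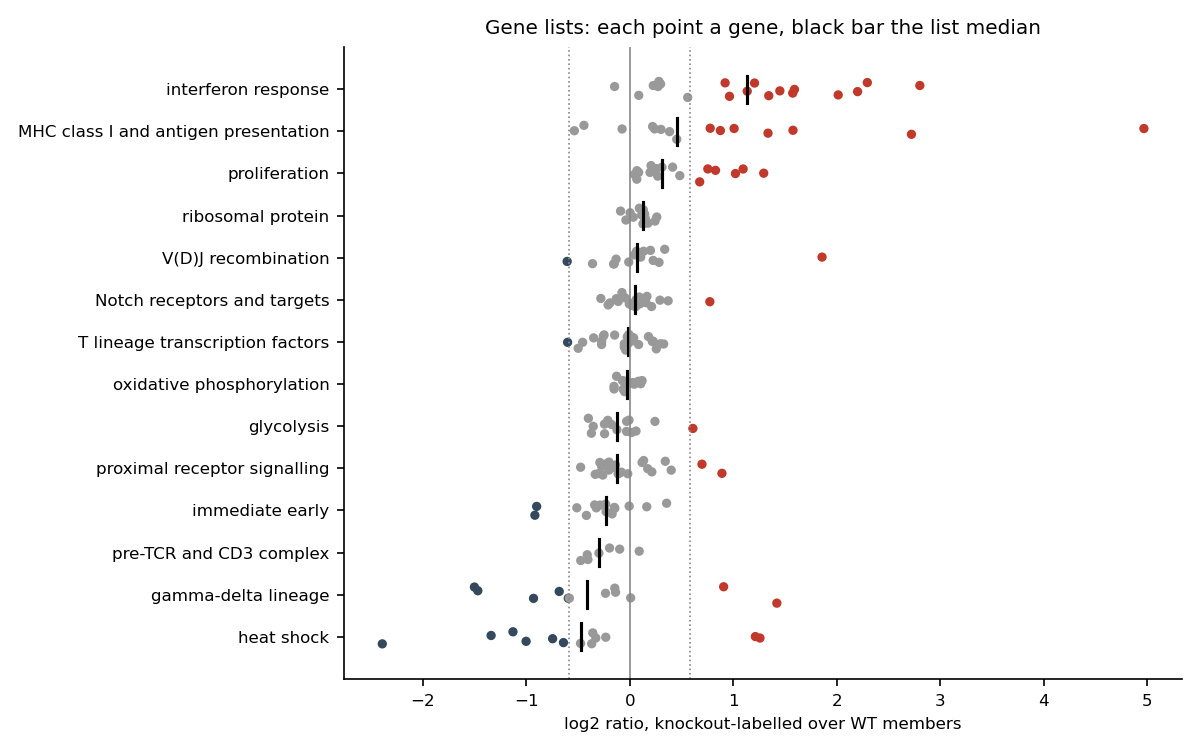
Log2 ratio of knockout-labelled over WT members (horizontal axis) for each measured gene of 14 lists, with a black bar at the list's median and dotted lines at 1.5-fold in either direction. The interferon list has 12 of 19 points past the right line and none past the left, the heat shock list has 6 of 13 past the left and 2 past the right, and the Notch and oxidative phosphorylation lists lie close to 0.

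Several large differences belonged to none of these lists. Sorl1, a sorting receptor for endosomal cargo, had 243 UMIs (27.3 CPM) in knockout-labelled and 27 UMIs (2.39 CPM) in WT members, a log2 ratio of 3.51 (interval 2.94 to 4.14). Mid1, a microtubule-associated ubiquitin ligase gene, had 209 UMIs in knockout-labelled and 53 in WT members (2.32). Ly6a, which encodes the surface antigen Sca-1 and is also inducible by interferon, was at 70.8 CPM in knockout-labelled and 22.7 CPM in WT members (1.64). The nonagouti gene (symbol a), a pigmentation gene, was at 25 CPM in knockout-labelled and 8.31 CPM in WT members (1.59). Cldn4 was at 81.2 CPM in knockout-labelled and 39.5 CPM in WT members (1.04), and was found in 22.5% of knockout-labelled and 10.6% of WT thinned members, against 1.18% and 0.862% of Cd4 and Trac positive cells. Atoh8, a helix-loop-helix factor gene, was at 89.9 CPM in knockout-labelled and 59.7 CPM in WT members (0.59). Cldn4, Atoh8, Scn4b and Emid1 had already led clusters made mainly of cells from a single library in an earlier analysis of these data, so their differences are not independent of it.

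On the lower side, Thy1, the surface antigen that marks T lineage cells, was at 245 CPM (2187 UMIs) in knockout-labelled and 825 CPM (9331 UMIs) in WT members, 3.36 times lower (interval 3.21 to 3.52). It too was lower in every class compared, with log2 ratios of -1.75 in members, -1.97 in Cd4 and Trac positive CD25+ and -1.90 in Cd4 and Trac positive CD25− cells. Scin, an actin-severing protein gene, was at 16.3 CPM in knockout-labelled and 89.7 CPM in WT members (-2.46, interval -2.72 to -2.21). Vim, the intermediate filament vimentin, was at 40.5 CPM in knockout-labelled and 116 CPM in WT members (-1.52). Kremen1, a receptor that dampens Wnt signals, was at 14.8 CPM in knockout-labelled and 51.7 CPM in WT members (-1.80), and Smtn, a cytoskeletal gene, at 6.51 and 23.2 CPM (-1.83). Emid1 was at 94.3 CPM in knockout-labelled and 239 CPM in WT members (-1.34) and Scn4b at 33.5 and 84.8 CPM (-1.34). Ccr9 was at 48.4 CPM in knockout-labelled and 113 CPM in WT members (-1.22), and Ly6d, a surface antigen gene of lymphoid progenitors, at 906 and 1573 CPM (-0.80). Ccl4, a chemokine gene, had 56 UMIs in knockout-labelled and 228 in WT members (-1.68). Hist1h2ac, a replication-dependent histone gene, had 101 UMIs in knockout-labelled and 346 in WT members (-1.43).

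Cd74 and H2-Ab1 were among the lowest by ratio, with 7 and 47 UMIs in knockout-labelled and 482 and 232 UMIs in WT members. Of the WT UMIs, 472 of Cd74 and 189 of H2-Ab1 lay in 1 cell. Without the 2 WT members that held at least 10 UMIs of MHC class II or hemoglobin genes, the log2 ratio of H2-Ab1 was 0.47 and 143 genes were lower. Neither gene is therefore read as a difference of the members at large. Both remain in the counts of lower genes and among the lowest named genes given here.

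Genes of the neighbouring stages gave no common direction. Of 19 measured genes induced at beta-selection, 2 passed 1.5-fold on the higher side and 2 on the lower side in knockout-labelled members, with a median log2 ratio of -0.02. Cd28, a costimulatory receptor that appears as cells pass this checkpoint, was among the higher ones at 35.9 CPM in knockout-labelled and 23.5 CPM in WT members. Egr1, an early growth response factor induced by pre-TCR signals, was among the lower ones at 26.0 CPM in knockout-labelled and 48.5 CPM in WT members. Of 12 double-positive stage genes, 1 was higher and 2 lower, with a median of -0.19, and the lower ones were Ccr9 and Endou, an RNA-cleaving enzyme gene, at 138 CPM in knockout-labelled and 242 CPM in WT members. Of 10 early progenitor genes, 2 were higher and 1 lower, and of 22 proximal receptor signalling genes 2 were higher and none lower. Among 15 CDK inhibitors and D cyclins, 3 were lower and none higher, and among 14 chemokine and homing receptors 3 were lower and none higher, against 4.94% lower and 7.74% higher over all genes with as many UMIs. Imprinted genes showed 1 of 7 higher and 1 lower: Igf2, a fetal growth factor gene beside H19, had 24 UMIs in knockout-labelled and 131 in WT members, while H19 itself was at 351 and 450 CPM. None of the 10 BCL-2 family genes was higher and 1 was lower. Of 10 genes of the PD-1 and other co-inhibitory pathways, only Pdcd1 passed 1.5-fold, and it did so on a counting interval that includes no difference.

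A part of the proliferation list stood higher in knockout-labelled members. Of 17 measured proliferation genes, 6 were at least 1.5-fold higher in knockout-labelled members and none lower, with a median log2 ratio of 0.31. Of the 17, 9 reached 20 CPM in either library. Over all genes with at least 20 UMIs, 7.74% were higher and 4.94% lower, which is also the share for the other lists of members below. Pclaf, a replication factor, was at 9.76 CPM in knockout-labelled and 3.98 CPM in WT members. In the cells that failed only on Gzma, 9 of 19 proliferation genes were higher and none lower, with a median of 0.57. The share over all genes was not counted in those cells. Leaving out members with a UMI of 6 further cycle genes gave a median of 0.07, but that step removes cells by genes of the same kind. Of 15 oxidative phosphorylation and 16 ribosomal protein genes none passed 1.5-fold, with median log2 ratios of -0.03 and 0.13. Glycolysis showed 1 of 15 higher, and sterol synthesis 1 of 15 higher and 1 lower. Of 17 p53 targets, 3 were lower and none higher, among them Bbc3, which encodes the death inducer PUMA, on 62 UMIs in knockout-labelled and 149 in WT members. Of 16 IL-7 and IL-2 receptor pathway genes, Kit was higher at 26.9 CPM in knockout-labelled and 17.0 CPM in WT members, and Socs2, a feedback inhibitor, lower on 71 and 163 UMIs. Il7r, the IL-7 receptor chain, was at 140 CPM in knockout-labelled and 168 CPM in WT members.

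Several of the largest differences were also seen in cells outside the rule. In the 2024 knockout-labelled and 1163 WT cells that failed only on Gzma, all 12 of the highest named genes and 10 of the 12 lowest were past 1.5-fold in the same direction, with medians of 2.21 and -1.64. The interferon list there had 14 of 19 genes higher and a median log2 ratio of 1.47. In cycling counterparts the 12 highest were again all past the mark, with Iigp1 at 0 UMIs in the WT cells, and so were 9 of the 10 lowest that could be measured. In Cd4 and Trac positive CD25+ cells, 4 of the 12 highest and 6 of 11 of the lowest were past the mark in the same direction. In the CD25− gate the counts were 7 of 11 and 4 of 8, and 2 of those 8 were past it in the opposite direction. Those 24 genes are the extremes. Over all 145 higher genes, 105 of 141 measured in cycling counterparts were past the mark in the same direction, 57 of 122 in early counterparts, 49 of 137 in Cd4 and Trac positive CD25+ cells and 30 of 118 in the CD25− gate. Over all 146 lower genes, the counts were 61 of 139 in cycling, 58 of 136 in early, 37 of 140 in Cd4 and Trac positive CD25+ cells and 20 of 117 in the CD25− gate. In that gate 2 of the higher and 12 of the lower genes were past the mark in the opposite direction. The share of all genes past the mark was not counted in these classes or in the cells that failed only on Gzma. Some sums are small, with 77 WT cycling and 60 knockout-labelled early cells. How much of these counts arose from counting error was not tested.

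The interferon difference in particular was not of one size. Its median log2 ratio was 1.14 in members, 1.25 in cycling and 0.83 in early counterparts, -0.07 in Cd4 and Trac positive CD25+ cells and 0.31 in those of the CD25− gate. These medians cover 19 genes in members and in both kinds of Cd4 and Trac positive cells, but 13 in cycling and 15 in early counterparts. Isg15 had log2 ratios of 0.96 in members, -0.34 in Cd4 and Trac positive CD25+ cells and 0.18 in the CD25− gate. H2-K1 and H2-D1 were likewise at 0.78 and 0.88 in members and at -0.24 and -0.12 in Cd4 and Trac positive CD25+ cells. In those cells H2-K1 was at 1343 CPM in the knockout-labelled library and 1583 CPM in the WT library. H2-Q6, H2-Q7, Mid1, Iigp1, Hspa8, Hsph1 and Thy1, in contrast, were past 1.5-fold in the same direction in cycling, early and both kinds of Cd4 and Trac positive cells, with Iigp1 at 0 UMIs in WT cycling cells. Each class has 1 library per genotype, so whether the classes differ was not tested.

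**Figure D5:**
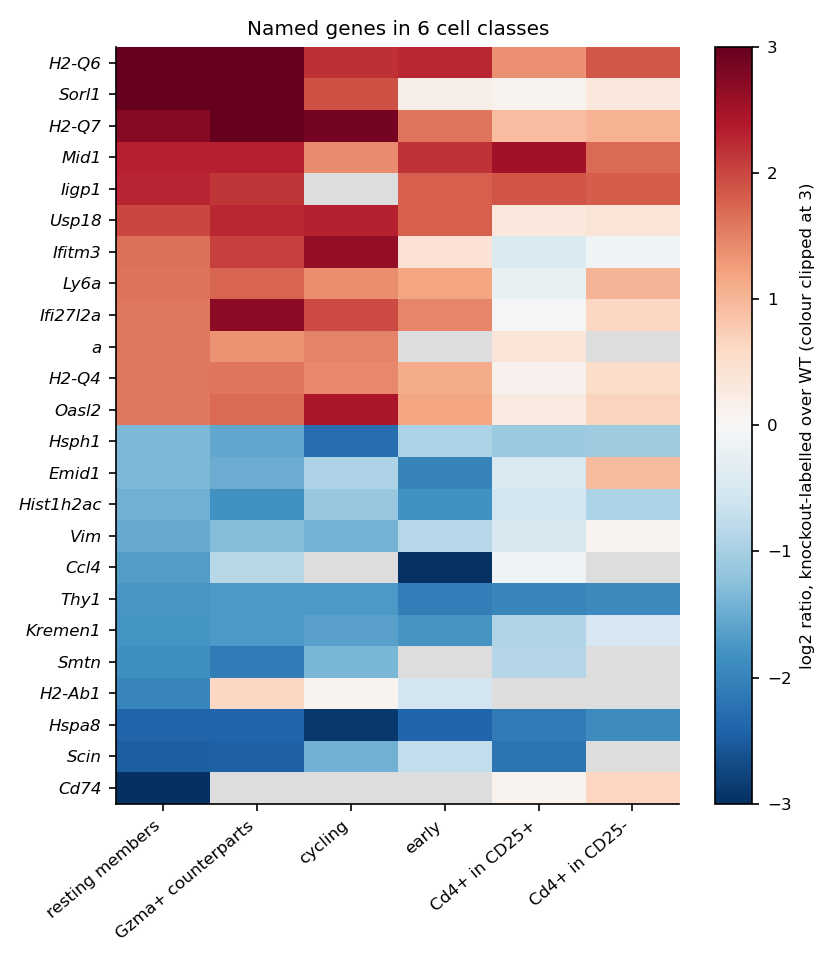
Log2 ratio of knockout-labelled over WT cells for the 12 highest and 12 lowest named genes (rows) in 6 cell classes (columns), coloured from blue (lower) to red (higher) and clipped at 3 in either direction, with grey where fewer than 20 UMIs were counted or a library was at 0. Rows for Hspa8 and Thy1 are blue in every class, whereas Usp18 and Oasl2 are a deeper red in the classes without Cd4 than in the Cd4-bearing classes.

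Some of the differing genes lie near each other. In windows of 5 Mb along GRCm38, with gene positions from GENCODE vM21, 323 of 504 windows with a compared gene held none past the mark, and 10 held 4 or more; 4.09% of all compared genes were past it. The windows were drawn after the values were seen. On chromosome 13 between 15 and 20 Mb, 7 of 14 compared genes were lower in knockout-labelled members, all of the T cell receptor gamma locus, and between 20 and 25 Mb 8 histone genes were lower of 29 compared. On chromosome 17 between 35 and 40 Mb, 7 of 40 were higher, among them H2-D1, H2-Q4, H2-Q6, H2-Q7 and H2-T22. On chromosome 9 between 40 and 45 Mb, 5 of 22 passed the mark. There Sorl1 (chr9:41964720-42124297, minus strand) was higher, while Hspa8 (chr9:40800984-40810087, plus strand), Thy1 (chr9:44043384-44048579, plus strand), Hyou1 and Kmt2a were lower. Il10ra, Rexo2 and Scn4b were lower in the next window.

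Members also varied among themselves. Over 6645 genes, the median Fano factor (variance over mean of UMIs in thinned cells, near 1 for pure counting noise) was 1.03 in knockout-labelled and 1.03 in WT members, and 27 genes reached 2 in both. The 10 highest were Gm42418, Lars2, Malat1, AY036118, Hspa1a, Crip1, Ly6d, mt-Co1, H19 and mt-Cytb, of which Malat1 is a nuclear non-coding RNA and the mt- genes are mitochondrial. Ly6d had Fano factors of 3.49 in knockout-labelled and 4.42 in WT members, at means of 2.73 and 4.75 UMIs per thinned cell. H19 had 3.23 in knockout-labelled and 3.15 in WT members, and was found in 43.1% and 51.5% of them, against 3.53% and 2.59% of Cd4 and Trac positive cells. Isg15, at rank 14, had 2.56 in knockout-labelled and 2.43 in WT members: the 1% of cells with most of it held 16.8% of its UMIs in knockout-labelled and 24.5% in WT members. Il2ra, at rank 23, also varied beyond counting noise, with 2.08 in knockout-labelled and 2.34 in WT members.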

How the data were processed

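Per the file headers and the values, the authors deposited raw UMI counts per gene and barcode for 4 libraries, with no normalization. Reads were aligned to mm10 with Cell Ranger, as version 6.2.1 per the submitters' processing notes and 6.1.2 per the file headers. Barcodes with at least 500 genes and under 10% mitochondrial UMIs were kept, and members were taken by the stated conditions. Doublets stayed in; an alternative left out those marked by Scrublet (scanpy 1.11.5) at 0.8% per 1000 cells. UMIs were summed over members per library and scaled to CPM over all genes. A gene was compared at 20 CPM in either library and called at 1.5-fold. Ratios have exact conditional binomial, levels exact Poisson and shares Clopper-Pearson 95% intervals, which cover counting error only. Only the ratio intervals were tested on simulated data, which held counting error alone. With 1 library per group there is no test. Lists were summarised over genes with 20 UMIs or more over both libraries. Thinning drew 3000 UMIs per cell. Named genes were the 12 highest and 12 lowest ratios with at least 100 UMIs over both libraries, an interval without 1 and the same direction with cells weighted equally, leaving out receptor segments, sex-linked, mitochondrial, ribosomal protein, hemoglobin genes and unnamed models. To these were added a fixed set of 28 genes, the extremes of 36 lists, the 10 most variable genes and the 8 extremes against each counterpart. Not all of these genes are given in the text. Other genes were named after their values were seen. Members and lists were chosen with earlier results of these data known. RefSeq promoter windows were found for 400 of 585 named or listed genes. Other tools were numpy 2.4.6, scipy 1.17.1 and pandas 2.3.3.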

Additional observations from a re-analysis of the deposited data

Results flagged for a closer look

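Among the genes named by rule, 4 had opposite directions in members and in Cd4 and Trac positive CD25− cells, each past 1.5-fold, and none of these differences was tested. Emid1 had a log2 ratio of knockout-labelled over WT of -1.34 in members and 0.95 in the Cd4 and Trac positive CD25− cells. Myb, a factor of progenitors, was at -0.60 in members and 0.75 in those cells, where its level was 23.5 CPM in the knockout-labelled library and 13.9 CPM in the WT library. Traf1, an adaptor of TNF receptors, was at 0.66 in members and -1.11 in those cells. Cd74 was at -5.76 in members and 0.64 in those cells, and 472 of its 482 UMIs in WT members lay in 1 cell.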

How the results depend on the processing

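The share of members followed the conditions. It was 16.4% of knockout-labelled and 23.5% of WT CD25+ cells with a stricter cell filter (at least 1000 genes, under 5% mitochondrial UMIs), 18.3% and 25.2% at 2 or more Ptcra UMIs, 10.1% and 14.8% at 5 or more, 11.1% and 16.7% at 2 or more Rag1 UMIs, 12.7% and 14.9% when the conditions were read in cells thinned to 3000 UMIs, and 12.2% and 18.1% when no UMI of 6 further cycle genes was allowed. Without the Gzma condition it was 35.6% and 36%; that alternative and the removal of cells with other-type RNA were chosen after seeing the data. Of genes compared, 240 were higher when totals left out mitochondrial, ribosomal protein and receptor genes, 916 higher and 585 lower with no CPM minimum, and 56 and 79 at a minimum of 50 CPM; the other alternatives gave 133 to 166 higher and 130 to 157 lower. The 24 named genes kept their direction past 1.5-fold in 12 of the 14 alternatives. The exceptions were H2-Ab1 and Cd74: without cells with other-type RNA the log2 ratio of H2-Ab1 reversed to 0.47 and that of Cd74 was -0.18, and with conditions read in thinned cells both were at -0.02. The median log2 ratio ranged over the alternatives from 1.04 to 1.45 for the interferon list, 0.42 to 0.51 for MHC class I, -0.48 to -0.37 for heat shock, -0.52 to -0.20 for the gamma-delta list and 0.07 to 0.61 for proliferation. Scrublet marked 8.45% of knockout-labelled and 8.25% of WT members. No paired analysis was possible because each group is 1 library. Replicates could not be left out for the same reason, and depth limits genes of few UMIs.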
